A study of Mus musculus with 82 samples.

Results

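Lipid transporters of the ATP-binding cassette (ABC) family were followed in cultured mouse aortic vascular smooth muscle cells (aVSMC) exposed to 3 vasoactive agonists. The 7 members were chosen by gene symbol out of 55401 annotated genes. They are Abca8a and the genes of its cluster on chromosome 11 (Abca8b, Abca9, Abca6 and Abca5), and the cholesterol efflux transporters Abca1 and Abcg1. Abca8a was picked for its fall with U46619 alone against control, so that contrast is given for all members as a description, with no test. All 7 were found and all 7 passed the filter on low counts at both time points.

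The cells came from C57BL/6 mice, were used up to passage 7 and were kept for 24 h without serum before incubation. EGF (10 µg/L), the ligand of the EGF receptor, AngII (10 nM), the ligand of the AT1 receptor, and U46619 (1 µM), a stable thromboxane A2 analog that activates the thromboxane receptor TP, were added alone or together. At 24 h there were 7 groups of 6 libraries, namely control, each agonist by itself, EGF paired with AngII or with U46619, and all 3 agonists, and each of 6 mice gave 1 library to every group. At 48 h there were 6 groups without the combination of all 3 agonists, with 10 libraries each of control and EGF and 5 each of AngII, U46619, EGF+AngII and EGF+U46619. No genetic change was made in any group. All cells, controls included, had been grown in medium with serum, insulin, transferrin, hydrocortisone, selenium and EGF before the serum-free day, and the cells are a primary culture outside the vessel wall.

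The 48 h libraries came from 2 preparations, called here the EGF/U46619 batch (culture sets B1-1 to B1-5, each with control, EGF, U46619 and EGF+U46619) and the EGF/AngII batch (sets B2-1, B2-2, B2-4, B2-5 and B2-6, each with control, EGF, AngII and EGF+AngII). The labels give 5 mice for these 10 sets, while the study's methods describe a different mouse for each replicate. Where a mouse number covers more than 1 set, p-values may partly measure the spread between cultures of 1 animal. Levels are given in FPM, which are CPM values (the count of a gene as a part of the total of its library) with library sizes scaled by TMM, a method that evens out differences in composition between libraries. Total counts ran from 16483529 to 20818809 per library at 24 h and from 19936925 to 33916114 at 48 h. The control library of set B2-4 stood apart: the correlation of its deviations from the group means of its batch with those of its own set was at most -0.32, against 0.936 with the AngII library of set B2-2. Its Abca8a level was 6.64 FPM (200 counts), where the other libraries of the set had 143, 158.2 and 176.3 FPM (3180 to 5443 counts). Member calls and log2-fold changes from the 48 h fit over both batches were also computed without this library. Levels, gene lists, markers and correlations with Abca8a or Abca1 at 48 h include it. The control of set B2-2 also followed its set less closely, with a median correlation of 0.614 against 0.925 to 0.931 in the other libraries. Only the controls of sets B2-4 and B1-3 had a lower median at 48 h. The B2-2 control had 12.55 FPM of Abca8a, against 5.71 to 6.48 FPM in its set, and was not left out by itself.

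ABC transporters use ATP to move lipids and other molecules across or between the leaflets of membranes. Abca1 passes cholesterol and phospholipid to lipid-poor apolipoprotein A-I, the first step in making HDL, and Abcg1 passes cholesterol to HDL particles. Both are classical targets of the oxysterol-activated liver X receptors (LXR), and in the arterial wall they protect cells from becoming foam cells. The ABCA8-type genes arose by duplication of neighbouring genes. Rodents carry Abca8a and Abca8b where humans have ABCA8, a transporter linked to cholesterol efflux and HDL levels, Abca5 acts in lysosomal lipid handling, and the substrates of Abca9 and Abca6 are less well known.

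In the annotation used here (mm10), the 5 cluster genes lie between positions 109932190 and 110337716 of chromosome 11, a span of 406 kb, all on the minus strand. Abca8a (ENSMUSG00000041828) covers 110025634 to 110095978. Abca8b (ENSMUSG00000020620) covers 109932190 to 109995845 and Abca9 (ENSMUSG00000041797) 110100749 to 110168196. Abca6 (ENSMUSG00000044749) covers 110176820 to 110251776 and Abca5 (ENSMUSG00000018800) 110269369 to 110337716. Abca1 (ENSMUSG00000015243) lies on chromosome 4 at 53030787 to 53159895 and Abcg1 (ENSMUSG00000024030) on chromosome 17 at 31057675 to 31117988.

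The 250 bases before the RefSeq start site are shown for the 3 cluster genes that moved together with U46619 (Abca8a, Abca9 and Abca8b) and, as a contrast, for Abca5 and Abca1, which were not called in the same comparisons. The sequences are from RefSeq on GRCm38.p6, all from the minus strand and written 5′ to 3′, and capitals mark matches on either strand to the short motifs named after them. The windows are chr11:110095938-110096187 (Abca8a), chr11:110168154-110168403 (Abca9), chr11:109995846-109996095 (Abca8b), chr11:110337717-110337966 (Abca5) and chr4:53159896-53160145 (Abca1). The RefSeq starts of Abca8a and Abca9 lie inside the longer gene models of the annotation used for positions.
Abca8a: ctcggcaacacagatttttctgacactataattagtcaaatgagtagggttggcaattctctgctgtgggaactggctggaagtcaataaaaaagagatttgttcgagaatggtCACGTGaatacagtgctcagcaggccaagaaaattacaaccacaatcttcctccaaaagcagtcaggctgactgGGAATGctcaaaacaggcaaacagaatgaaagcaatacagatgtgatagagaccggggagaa
Abca9: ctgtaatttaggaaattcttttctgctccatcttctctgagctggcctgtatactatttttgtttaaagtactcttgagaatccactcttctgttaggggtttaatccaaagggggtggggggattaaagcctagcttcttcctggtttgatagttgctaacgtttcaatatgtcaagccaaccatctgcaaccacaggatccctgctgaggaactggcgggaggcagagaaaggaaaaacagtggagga
Abca8b: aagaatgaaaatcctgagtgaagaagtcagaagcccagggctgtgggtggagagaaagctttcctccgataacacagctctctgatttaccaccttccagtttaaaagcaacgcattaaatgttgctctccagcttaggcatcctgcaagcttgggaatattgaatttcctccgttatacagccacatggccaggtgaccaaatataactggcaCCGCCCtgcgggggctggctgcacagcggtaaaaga
Abca5: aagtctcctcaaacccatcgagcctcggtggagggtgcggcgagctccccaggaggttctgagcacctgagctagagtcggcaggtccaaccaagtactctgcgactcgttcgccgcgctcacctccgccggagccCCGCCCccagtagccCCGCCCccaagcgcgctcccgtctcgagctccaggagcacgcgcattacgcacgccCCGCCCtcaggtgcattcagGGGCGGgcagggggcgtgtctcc
Abca1: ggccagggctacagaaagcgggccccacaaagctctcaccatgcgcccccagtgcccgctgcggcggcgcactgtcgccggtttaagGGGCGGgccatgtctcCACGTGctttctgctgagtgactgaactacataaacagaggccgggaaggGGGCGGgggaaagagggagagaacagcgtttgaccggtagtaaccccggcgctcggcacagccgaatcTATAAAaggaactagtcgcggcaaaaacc

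No promoter window was available for Abca6 or Abcg1. Among those shown, the 3 promoters of the genes that fell were poorer in G and C than the other pair. GC content was 43.2% for Abca8a, 44.4% for Abca9 and 48.8% for Abca8b, with 4, 2 and 6 CpG dinucleotides, while Abca5 had 69.2% and 25 and Abca1 61.6% and 20. Over 32851 promoter windows the medians were 52.4% and 6. Of 8 motifs searched on both strands, the Abca8a window held the E-box CACGTG, starting 136 bases before the start and found in 6.02% of all windows, and the TEAD motif CATTCC, at 62 bases and found in 12.64%. The Abca8b window held 1 GC box (GGGCGG, found in 32.74%) and the Abca9 window held none of the 8. Abca5 had 4 GC boxes. Abca1 had 2 GC boxes, an E-box and the TATA box TATAAA (found in 12.37%), which starts 29 bases before the start. No window held the nuclear receptor motif AGGTCA (found in 14.02% of all windows), the AP-1 motif TGACTCA (in 4.46%), the forkhead motif GTAAACA (in 3.17%) or the CArG box (in 1.47%). No motif was common to the 3 promoters of the genes that fell, and a match of letters is no evidence of binding.

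Between genes, levels are compared as FPM per kb of exon. In control cells at 24 h the highest level per length was that of Abca1, 5.93 ± 1.65 FPM per kb (SD, n = 6), followed by Abca8a (2.58 ± 1.93), Abca9 (2.36 ± 2.80), Abca8b (1.22 ± 0.529), Abcg1 (0.89 ± 0.645), Abca5 (0.546 ± 0.292) and Abca6 (0.275 ± 0.411). Abca1 stood above Abca8a by more than either SD, whereas each later neighbour in this order differed from the next by less than their spread. At 48 h the order in control cells (n = 10) was Abca1 (5.42 ± 2.71), Abca8a (2.15 ± 1.35), Abca8b (1.15 ± 0.522), Abca9 (1.05 ± 0.464), Abca5 (0.574 ± 0.240), Abcg1 (0.389 ± 0.387) and Abca6 (0.115 ± 0.0609). Here Abca1 exceeded Abca8a, and Abca9 exceeded Abca5, by more than either SD, and the other neighbours lay within an SD. The members varied widely between animals before any agonist was added: among the 24 h controls the highest level was 2.09 times the lowest for Abca1, 4.33 times for Abca8b, 6.22 times for Abca8a, 14.8 times for Abca9 and 44.0 times for Abcg1.

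**Figure D1:**
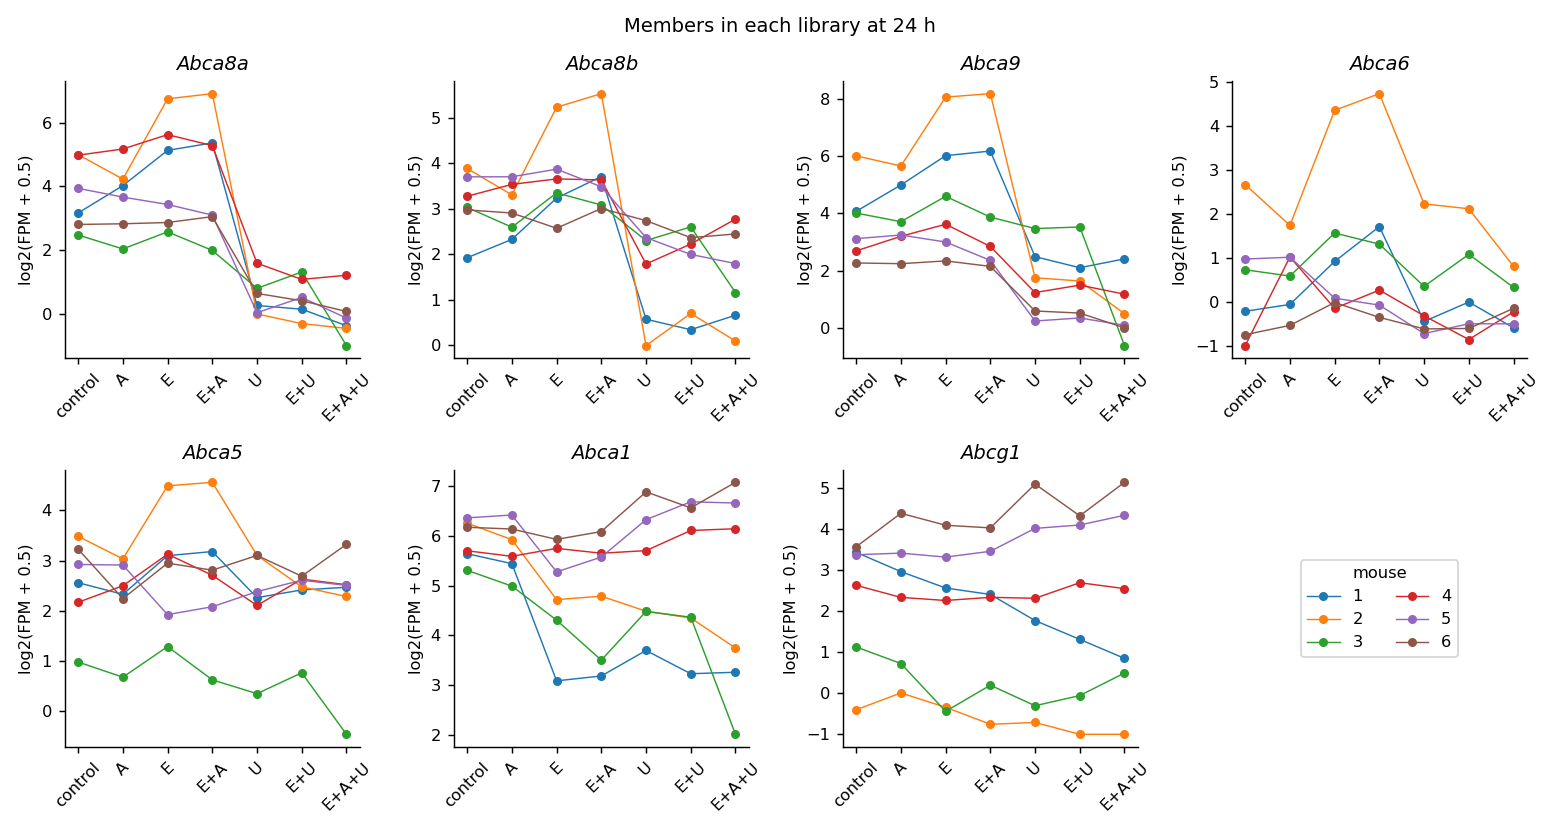
Level of each member at 24 h in log2(FPM + 0.5), 1 line per mouse, with groups on the x axis (A, AngII; E, EGF; U, U46619). Abca8a lies between 3.47 and 119.5 FPM in every library without U46619 and at 2.50 FPM or below in every library with it, while the lines of Abca1 spread apart by mouse.

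The question for the cluster was whether the thromboxane receptor agonist changes its transcripts also in cells that receive EGF, and EGF with AngII. These comparisons do not set the control or the U46619-alone libraries, in which Abca8a was picked, against others. Those libraries are still in the same fit, come from the same mice and share its estimate of the spread. The comparisons are therefore not fully independent of the choice of Abca8a. U46619 lowered Abca8a, Abca9 and Abca8b in all 3 comparisons (added to EGF at 24 h and 48 h, and added to EGF+AngII at 24 h), and Abca6 in 1 of them. Abca5, Abca1 and Abcg1 were not called in any. A gene was called when its Benjamini-Hochberg adjusted p was under 0.05 in both edgeR and DESeq2, its mean reached 5 FPM in 1 of the groups compared and it passed the filter at both time points. Of 14528 genes tested, 6.14% were called lower and 6.73% higher when U46619 was added to EGF at 24 h, 8.05% and 11.8% when it was added to EGF+AngII, and 2.2% and 2.62% when it was added to EGF at 48 h. Against these shares, 3, 4 and 3 of the 7 members were called lower and none higher. In bulk RNA, fewer cells that express a gene and less RNA per cell cannot be told apart.

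Abca8a had the largest difference of the 7 members. With EGF at 24 h its levels in mice 1 to 6 were 34.4, 106.7, 5.43, 48.7, 10.3 and 6.77 FPM, and with EGF+U46619 they were 0.604, 0.307, 1.98, 1.61, 0.924 and 0.827 FPM. Every EGF library lay above every EGF+U46619 library, and mouse 2, the highest with EGF, became the lowest. The log2-fold change was -4.26 ± 0.64 (SE), 19.2-fold lower, with an adjusted p of 5.42e-05 in edgeR. With EGF+AngII the 6 levels were 40.6, 119.5, 3.47, 38.3, 8.05 and 7.76 FPM, and with U46619 added 0.270, 0.227, 0, 1.81, 0.410 and 0.550 FPM, again without overlap. This is a log2-fold change of -5.63 ± 0.69 (adjusted p = 5.69e-06 in edgeR), and these last levels rest on 0 to 36 counts per library.

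At 48 h Abca8a again fell in every culture set of the EGF/U46619 batch. The EGF libraries of sets B1-1 to B1-5 had 10.9, 18.3, 36.1, 2.36 and 25.9 FPM, and the EGF+U46619 libraries 0.193, 0.63, 0.928, 0.222 and 3.55 FPM. The groups overlapped, since set B1-5 with U46619 stayed above set B1-4 without it, although each set was lower with U46619 than without it, with differences from -4.68 to -1.98 on the scale of log2(FPM + 0.5). The fit over all 48 h libraries gave a log2-fold change of -4.81 ± 0.65 (adjusted p = 6.44e-05 in edgeR). Within the EGF/U46619 batch, with the culture set as the paired block, it was -4.28, and without the control library of set B2-4 it was -4.84.

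Abca9, the gene next to Abca8a on its upstream side, moved with it. At 24 h its levels with EGF were 64.1, 266, 23.6, 11.8, 7.49 and 4.56 FPM in mice 1 to 6, and with EGF+U46619 they were 3.79, 2.61, 11.0, 2.31, 0.770 and 0.930 FPM. Each mouse was lower with U46619, and mouse 3, the highest with it, overlapped the lower EGF libraries. The log2-fold change was -3.08 ± 0.64 (adjusted p = 0.0014 in edgeR). Added to EGF+AngII (71.8, 289.8, 14.1, 6.68, 4.62 and 3.93 FPM), U46619 left 4.81, 0.908, 0.151, 1.76, 0.563 and 0.5 FPM, a log2-fold change of -4.17 ± 0.70 (adjusted p = 0.000127). At 48 h the levels went from 13.5, 12.2, 14.5, 3.44 and 12.9 FPM in sets B1-1 to B1-5 to 1.06, 1.18, 2.09, 2.06 and 5.98 FPM, lower in 5 of 5 sets, with a log2-fold change of -2.11 ± 0.40 (adjusted p = 0.00233). Within the EGF/U46619 batch this difference was -2.28.

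Abca8b, the nearest relative of Abca8a, fell less in size. Its levels in mice 1 to 6 were 8.91, 37.1, 9.69, 12.1, 14.1 and 5.44 FPM with EGF and 0.768, 1.12, 5.57, 4.18, 3.49 and 4.65 FPM with EGF+U46619. All 6 mice were lower, but the groups touched, since mouse 3 with U46619 stood just above mouse 6 without it. The log2-fold change was -2.09 ± 0.53 (adjusted p = 0.00633 in edgeR). With EGF+AngII (12.6, 45.7, 7.97, 11.9, 10.7 and 7.53 FPM) and U46619 added to it (1.08, 0.567, 1.73, 6.33, 2.97 and 4.95 FPM) the groups did not overlap, and the log2-fold change was -2.44 ± 0.54 (adjusted p = 0.0015). At 48 h sets B1-1 to B1-5 went from 7.25, 7.56, 14.0, 3.74 and 8.5 FPM to 3.47, 1.81, 4.64, 3.40 and 3.59 FPM, a log2-fold change of -1.57 ± 0.37 (adjusted p = 0.0114). Without set B1-3 the adjusted p of Abca8b rose to 0.053 at a log2-fold change of -1.59. Paired by culture set, in log2(FPM + 0.5), its mean difference was smaller in size, -1.105, with single sets from -1.801 to -0.121.

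Abca8a and Abca8b are close in sequence, so reads could be shared between them. Of the 50-base stretches in the annotated transcripts, 105 of 6394 from Abca8a (1.64%) also occurred in Abca8b, and no stretch of 100 or 150 bases did. The share of Abca8a in the summed counts of both genes had a median of 64.8% with EGF (35.9% to 80.1% over 6 libraries) and 23.8% with EGF+U46619 (15.1% to 44.0%). With EGF+AngII it was 61.55% and with all 3 agonists 16.1%. The pair therefore did not keep its ratio, and this difference is given without a test. An antisense gene, Gm11697, shares 241 exonic bases with Abca8b but had at most 2 counts in any 24 h library. Abca9 and Abca6 share 13 such 50-base stretches.

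Abca6, with a low level throughout, was called in 1 comparison, a call that was lost without mouse 1 or mouse 2 and without the replicate block. With EGF+AngII its 6 levels were 2.77, 26.2, 1.98, 0.701, 0.447 and 0.281 FPM, and with U46619 added 0.162, 1.25, 0.754, 0.352, 0.205 and 0.400 FPM. The log2-fold change was -2.23 ± 0.64 (adjusted p = 0.0112 in edgeR), lower in 5 of 6 mice. Mouse 2 held most of the group's mean of 5.39 FPM, and without it the difference was -1.52 (adjusted p = 0.151), while without mouse 1 it was -1.85 (adjusted p = 0.0699) and without the block -3.37 (adjusted p = 0.13). Added to EGF alone at 24 h, the log2-fold change was -1.51 ± 0.59 (adjusted p = 0.0737) and lower in 6 of 6 mice, and at 48 h it was -0.95 ± 0.50 (adjusted p = 0.268). Abca6 could not be called in either, since its means stayed under 5 FPM in those groups.

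Abca5, at the far end of the cluster, was not called. At 24 h its levels were 8.06, 21.9, 1.94, 8.23, 3.29 and 7.21 FPM with EGF and 4.83, 5.06, 1.20, 5.69, 5.60 and 5.94 FPM with EGF+U46619. The ranges overlapped widely and mouse 5 was higher with U46619. The log2-fold change was -0.67 ± 0.31, with a 95% interval of -1.27 to -0.06 before adjustment (adjusted p = 0.142 in edgeR). It was -0.58 ± 0.31 with EGF+AngII as the base (interval -1.19 to 0.03, adjusted p = 0.174) and -0.34 ± 0.25 at 48 h (interval -0.83 to 0.15, adjusted p = 0.441).

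**Figure D2:**
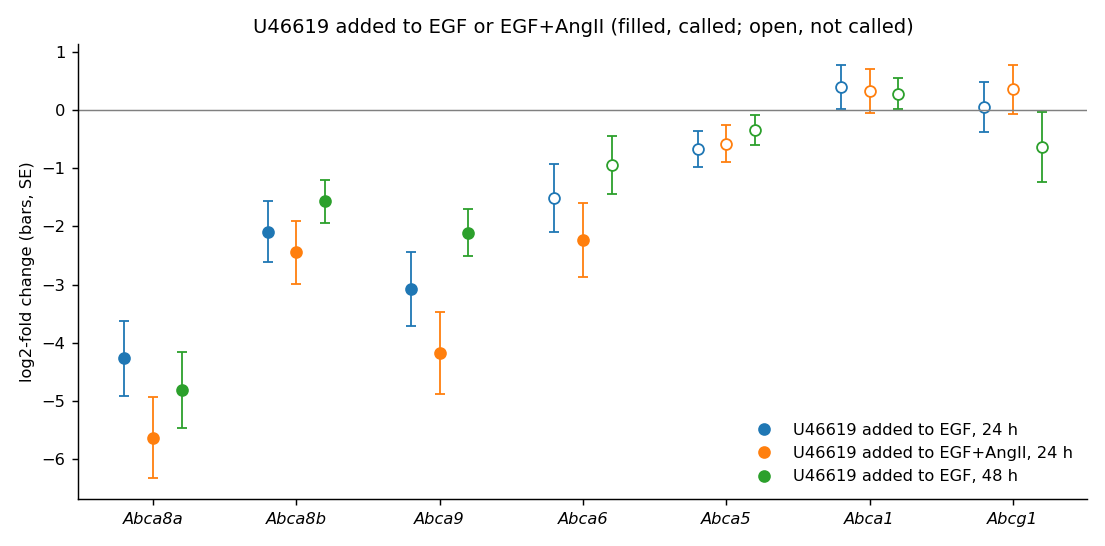
Log2-fold change of each member when U46619 was added to EGF at 24 h, to EGF+AngII at 24 h and to EGF at 48 h, with SE bars from the fit over all genes (filled, called; open, not called). Abca8a, Abca9 and Abca8b are filled in all 3 comparisons, and the values of Abca1 and Abcg1 lie between -0.63 and 0.40.

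The genes beside the cluster were measured as well. Of the 3 nearest protein-coding genes on each side, 4 passed the filter, and none was called in these 3 comparisons. When U46619 was added to EGF at 24 h the log2-fold changes were -0.22 ± 0.10 for Prkar1a, a regulatory subunit of protein kinase A, -0.29 ± 0.23 for Fam20a, -1.24 ± 0.47 for Map2k6, a kinase of the p38 pathway, and -0.77 ± 0.34 for Kcnj2, a potassium channel. The last pair stayed under 5 FPM and could not be called in these comparisons. In chromosome order the difference was -2.09 for Abca8b, -4.26 for Abca8a, -3.08 for Abca9, -1.51 for Abca6 and -0.67 for Abca5. Whether these neighbouring values differ from each other was not tested.

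**Figure D3:**
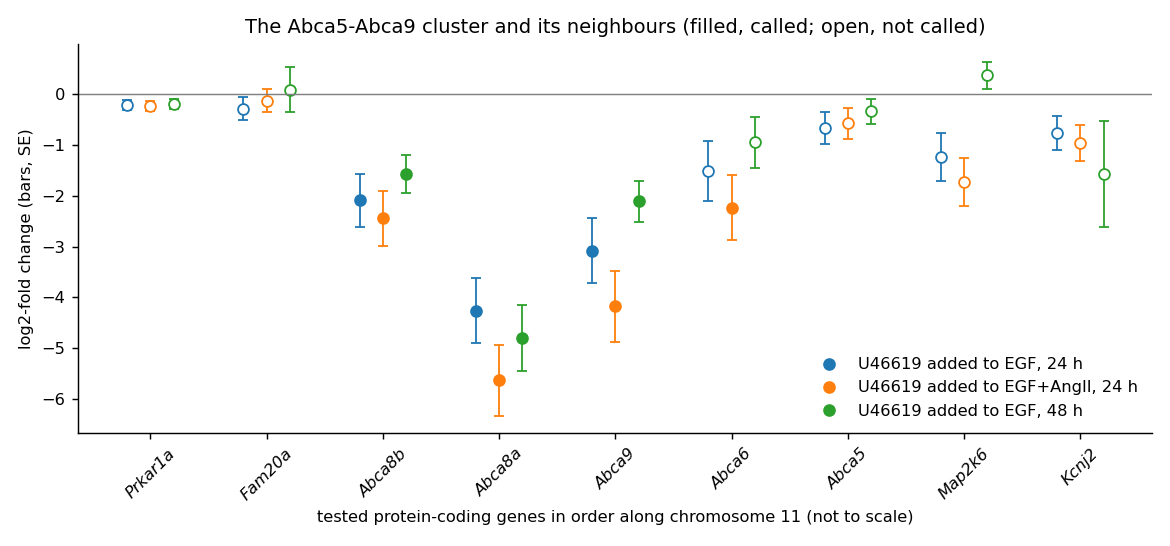
Log2-fold change with SE for the 9 tested genes in their order along chromosome 11 (spacing not to scale), in the same 3 comparisons (filled, called; open, not called). The lowest values belong to Abca8a and Abca9 in the middle, and Prkar1a and Fam20a at the left edge lie between -0.29 and 0.09.

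Against control cells, U46619 alone gave log2-fold changes at 24 h of -3.61 for Abca8a, -2.07 for Abca9, -1.38 for Abca8b, -0.79 for Abca6, -0.39 for Abca5, -0.80 for Abca1 and -0.42 for Abcg1. At 48 h they were -4.42, -1.94, -1.62, -0.24, -0.39, -0.06 and -0.71 with the mouse number as the block. Paired by culture set, in log2(FPM + 0.5), Abca1 was instead higher in 5 of 5 sets (0.14 to 0.24) and Abcg1 had a mean difference of 0.03 (higher in 3 of 5 sets). The call rule is met by Abca8a, Abca9 and Abca8b at both times, beside 13.9% of all genes lower at 24 h and 1.55% at 48 h, but nothing is read from that count, because this contrast chose the gene. Abca8a itself went from 8.45, 31.4, 5.04, 30.95, 14.8 and 6.47 FPM in the 6 control libraries to 0.696, 0.495, 1.24, 2.50, 0.523 and 1.05 FPM at 24 h.

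The combinations share these control libraries, so their values are set beside the others without being counted as further support. EGF+U46619 at 24 h gave -3.45 ± 0.62 for Abca8a (adjusted p = 6.27e-05 in edgeR), -2.05 ± 0.62 for Abca9 (adjusted p = 0.00887) and -1.39 ± 0.51 for Abca8b (adjusted p = 0.0295), 3 of 7 members where 15.8% of all genes were called lower. All 3 agonists together gave -4.80 ± 0.68, -3.29 ± 0.68 and -1.57 ± 0.52, and 4 of 7 members, the fourth being Abca1, where 15.7% of all genes were called lower. EGF+U46619 at 48 h gave -4.64 ± 0.65, -2.02 ± 0.41 and -1.44 ± 0.37, 3 of 7 members against 3.01% of all genes. Without mouse 5 only Abca8a remained called for EGF+U46619 at 24 h.

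The effect of EGF in cells that also received U46619 was tested next, in libraries that include those with U46619 alone. EGF added to U46619 called no member and 0% of all genes at either time, while 363 genes at 24 h and 47 at 48 h had an unadjusted p under 0.05 in both edgeR and DESeq2. For Abca8a the difference was 0.16 ± 0.67 at 24 h (95% interval -1.16 to 1.48) and -0.21 ± 0.68 at 48 h (-1.55 to 1.12), so a change of more than 2-fold either way lies within the interval. The interaction of EGF and U46619 asks whether EGF changed the response to U46619. It likewise called no member and 0% of all genes, with 433 and 32 genes under an unadjusted p of 0.05 in both tools. It was -0.66 ± 0.86 for Abca8a and 1.20 ± 0.53 for Abca1 at 24 h, the latter with an interval of 0.15 to 2.25 and an adjusted p of 1 in edgeR.

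Without U46619 no member was called. EGF alone at 24 h called 0.0275% of all genes (4 genes). The cluster genes were on average higher with EGF, by 0.82 ± 0.52 for Abca8a, 1.03 ± 0.57 for Abca9, 0.70 ± 0.49 for Abca8b and 1.04 ± 0.57 for Abca6 on the log2 scale, with adjusted p between 0.338 and 0.456 in edgeR. Abca8a was higher in 5 of 6 mice, but in mice 3 and 6 by little: mouse 2 went from 31.4 to 106.7 FPM and mouse 1 from 8.45 to 34.4 FPM, whereas mouse 6 went from 6.47 to 6.77 FPM and mouse 5 from 14.8 to 10.3 FPM. EGF+AngII at 24 h called 3.13% of all genes and no member, with 0.83 ± 0.53 for Abca8a (adjusted p = 0.329). Here both tools put 3559 genes below p = 0.05 before adjustment. AngII alone called 0% of all genes at 24 h, 62 with an unadjusted p under 0.05 in both tools, and Abca8a differed by -0.06 ± 0.51 (interval -1.07 to 0.94).

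At 48 h EGF, AngII and EGF+AngII each called 0% of all genes and no member, with 123, 222 and 266 genes under an unadjusted p of 0.05 in both tools. Over the 10 sets Abca8a had a lowest, median and highest level of 1.35, 11.8 and 27.9 FPM in control and 2.36, 12.9 and 143 FPM with EGF, where the highest is the EGF library of set B2-4. The difference on the log2 scale was 0.17 ± 0.39 over both batches, 0.40 within the EGF/U46619 batch and -0.11 within the EGF/AngII batch, and -0.02 without the control library of set B2-4. With AngII the libraries of sets B2-1, B2-2, B2-4, B2-5 and B2-6 had 13.2, 6.4, 158.2, 9.41 and 12.7 FPM, a difference of 0.54 ± 0.47 that became 0.34 without that control library, and -0.03 without it and with the culture set as the paired block. Within sets the AngII difference was 4.48 in set B2-4 and -0.21, -0.92, 0.55 and -0.49 in B2-1, B2-2, B2-5 and B2-6, on the scale of log2(FPM + 0.5), so the positive mean was carried by set B2-4. With EGF+AngII the difference was 0.73 ± 0.47, 0.54 without that control and 0.14 without it in the fit paired by set. The EGF difference had opposite signs in the batches, beside an SE of 0.39 over both. Whether the batches differ was not tested, and the EGF/AngII value includes the control libraries of sets B2-4 and B2-2.

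**Figure D4:**
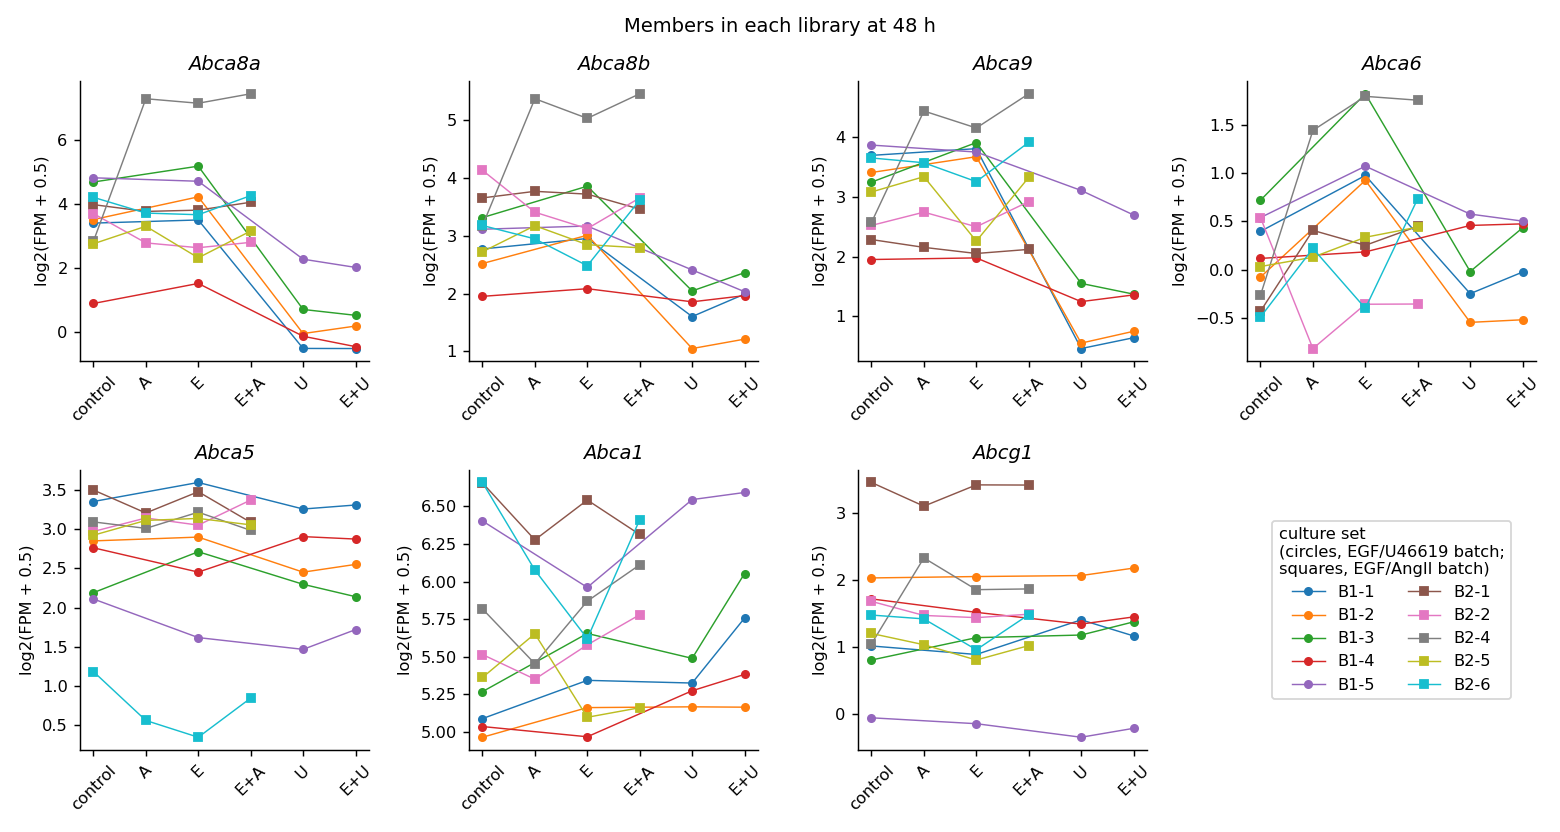
Level of each member at 48 h in log2(FPM + 0.5), 1 line per culture set (circles, EGF/U46619 batch; squares, EGF/AngII batch; A, AngII; E, EGF; U, U46619). Set B2-4 goes from 6.64 FPM of Abca8a in its control to between 143 and 176.3 FPM in its other libraries, and all 5 sets with U46619 lie at 4.34 FPM or below.

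Abca1, the transporter that loads apolipoprotein A-I, was the most abundant member per length in control cells. With EGF at 24 h the means of Abca9 (7.83 FPM per kb) and Abca8a (5.64) were above that of Abca1 (3.30). The levels of Abca1 differed widely between mice at 24 h. Its control levels in mice 1 to 6 were 49.4, 75.8, 39.1, 51.4, 81.6 and 71.5 FPM. With EGF they were 8.00, 25.8, 19.3, 53.2, 38.2 and 60.4 FPM, lower in 5 of 6 mice, with a log2-fold change of -1.21 ± 0.38 (adjusted p = 0.112 in edgeR and 0.0555 in DESeq2). With EGF+AngII they were 8.60, 27.1, 10.8, 49.7, 47.1 and 67.4 FPM, lower in 6 of 6 mice. That difference of -1.28 ± 0.38 missed the threshold in edgeR (adjusted p = 0.0536) and passed it in DESeq2 (adjusted p = 0.0155), and so was not called.

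Adding U46619 to these agonists did not give a called change of Abca1 at 24 h. With EGF+U46619 its levels in mice 1 to 6 were 8.89, 19.9, 20.1, 68.4, 102 and 93.8 FPM, a difference from EGF of 0.40 ± 0.38 (interval -0.34 to 1.14, adjusted p = 0.514 in edgeR). With all 3 agonists they were 9.08, 12.9, 3.54, 70.1, 100.4 and 134 FPM, a difference from EGF+AngII of 0.32 ± 0.38 (interval -0.42 to 1.06, adjusted p = 0.57). Against control, all 3 agonists together had Abca1 called lower, by -0.96 ± 0.39 (adjusted p = 0.0458 in edgeR). This call joins 3 mice below their control, mice 1 to 3, and 3 above it, and it was lost without mouse 1 (-0.58, adjusted p = 0.256), mouse 2 (-0.66, adjusted p = 0.244) or mouse 3 (-0.67, adjusted p = 0.175).

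At 48 h Abca1 was slightly higher with U46619. The EGF libraries of sets B1-1 to B1-5 had 40.1, 35.3, 49.9, 30.8 and 61.8 FPM and the EGF+U46619 libraries 53.6, 35.4, 65.9, 41.2 and 95.95 FPM, higher or level in each set. The fit with mouse as the block gave 0.28 ± 0.26 (adjusted p = 0.553 in edgeR), and Abca1 was not called. With the culture set as the paired block the difference was 0.45 (adjusted p = 0.0238), and within the EGF/U46619 batch 0.38 (adjusted p = 0.0243), and both passed the call rule. The call for Abca1 at 48 h therefore rests on how the cultures are paired. Against control, EGF+U46619 gave 0.17 ± 0.26 over all libraries and 0.45 within that batch.

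Abcg1, which passes cholesterol to HDL, varied widely between mice and was not called in any comparison. At 24 h its control levels were 10.2, 0.257, 1.68, 5.66, 9.81 and 11.3 FPM in mice 1 to 6. With EGF they were 5.39, 0.288, 0.236, 4.27, 9.41 and 16.5 FPM, and with EGF+U46619 1.98, 0, 0.460, 5.94, 16.5 and 19.4 FPM. Mice 5 and 6 were at or near the top of each group and mouse 2 was at or near the bottom. U46619 added to EGF gave 0.05 ± 0.43 (interval -0.80 to 0.89), and added to EGF+AngII 0.35 ± 0.42 (interval -0.48 to 1.18). At 48 h all group means of Abcg1 were under 5 FPM, so it could not be called there, and its difference of -0.63 ± 0.60 became 0.16 with the culture set as the paired block.

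Within mice Abca8a varied with its cluster more than with the efflux transporters. Over 42 libraries at 24 h, as deviations from each mouse's mean in log2(FPM + 0.5), Pearson's r of Abca8a was 0.951 with Abca9, 0.932 with Abca8b, 0.715 with Abca6 and 0.608 with Abca5, against 0.172 with Abca1 and 0.138 with Abcg1. Over 40 libraries at 48 h, as deviations from the set means, the same values were 0.939, 0.919, 0.72, 0.345, -0.3 and 0.139. Abca5 stood between the sets at 48 h, with an r of 0.383 with Abca1. These libraries share mice, treatments and scaling, and the correlations describe them only. Among 9966 genes the 5 most like Abca8a at 24 h were Col6a1 (0.968), Col6a2 (0.965), Lifr (0.954), Abca9 (0.951) and Wdr66 (0.948). At 48 h their r with Abca8a was 0.892, 0.871, 0.768, 0.939 and 0.694, and Abca9 ranked 1 of all genes. Those most like Abca1 at 24 h, Mnt (0.866), Eef1a1.ps1 (0.86), Rhobtb1 (0.857), Scpep1 (0.847) and Fzd7 (0.84), had an r between -0.316 and 0.621 with it at 48 h.

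Genes around cholesterol transport gave a mixed picture. Of 16 LXR receptors, partners and targets, 13 passed the filter. When U46619 was added to EGF at 24 h, 5 were called lower and none higher, among them Nr1h3, which encodes LXRα (-1.60 ± 0.24, adjusted p = 4.79e-05 in edgeR), Smpdl3a, a phosphodiesterase (-1.15 ± 0.40, adjusted p = 0.0451), and Pltp, the phospholipid transfer protein (-0.94 ± 0.27, adjusted p = 0.0165). The median of the 13 was -0.285, against -0.002 over all genes. With EGF+AngII as the base 3 were lower: Nr1h3 (-1.51 ± 0.24), Smpdl3a (-1.20 ± 0.41) and the LXR partner Rxra (-0.39 ± 0.12). At 48 h 1 was lower, the lipoprotein component Apoe (-1.83 ± 0.44), and 3 were higher, the desaturase Scd2 (0.94 ± 0.28), Arl4c (0.75 ± 0.18) and the phospholipid acyltransferase Lpcat3 (0.57 ± 0.13). EGF+AngII against control at 24 h lowered Pltp (-1.25) and Apoe (-0.85).

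In a list of 22 genes of sterol uptake, transport and storage, 16 passed the filter and 5 were listed at 0 in every library. U46619 added to EGF at 24 h raised 2 of them, the esterifying enzyme Soat1 (0.72 ± 0.16) and the HDL receptor Scarb1 (0.63 ± 0.20), and lowered 4, among them the sterol hydroxylase Cyp27a1 (-1.15 ± 0.25), the lysosomal lipase Lipa (-0.74 ± 0.17) and the lysosomal sterol carrier Npc2 (-0.68 ± 0.21). Added to EGF+AngII it raised 3, with the cholesterol hydroxylase Ch25h highest (1.25 ± 0.32), and lowered 3. At 48 h Soat1 (0.72 ± 0.12) and the lysosomal cholesterol exporter Npc1 (0.66 ± 0.19) were higher and none lower. Of 12 genes of sterol synthesis, 11 passed the filter and none was called in these 3 comparisons. Of 10 other ABCA genes, 4 passed the filter, and Abca7 was lower when U46619 was added to EGF at 24 h (-0.80 ± 0.26, adjusted p = 0.0324 in edgeR) but not in the other 2 comparisons.

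Markers of other cell types moved with the cluster genes, and their part in the result was not tested. Of the 8 fibroblast markers, 6 were called lower when U46619 was added to EGF at 24 h, led by Lum (-3.47 ± 0.68), Scara5 (-3.28 ± 0.52) and Dcn (-1.99 ± 0.58), 5 when it was added to EGF+AngII and 2 at 48 h (Scara5, -3.19 ± 0.76, and Pi16, -1.53 ± 0.40). Their summed level at 24 h was lower with EGF+U46619 than with EGF in each mouse. It ran from 1938 to 3787 FPM with EGF and from 1338 to 2160 FPM with EGF+U46619, with overlap between mice. At 48 h, within the EGF/U46619 batch, it ran from 3416 to 3738 FPM with EGF and from 2271 to 2725 FPM with EGF+U46619, lower in 5 of 5 sets and without overlap. The EGF libraries of the other batch spanned 1080 to 7398 FPM. These markers were present in the control cells: Serpinf1 had at least 1072 FPM, Pdgfra 141 FPM and Dcn 122 FPM in every 24 h control library. Among smooth muscle markers, of which 4 of 6 passed the filter, Acta2 was higher at 24 h (1.99 ± 0.40 and 2.17 ± 0.40) and none was called at 48 h. Their sum at 24 h was higher with EGF+U46619 than with EGF in each mouse. It ran from 417 to 8784 FPM with EGF and from 1691 to 12700.0 FPM with EGF+U46619. Most of this sum was Acta2, with a median of 2424 FPM in the 24 h controls against 2532 FPM for the sum. At 48 h the sums of sets B1-1 to B1-5 were 2833, 948, 3466, 7108 and 763 FPM with EGF. With EGF+U46619 they were 3044, 1120, 3685, 4390 and 399 FPM, so sets B1-4 and B1-5 were lower and the others higher. The median log2-fold change of the 4 tested markers was 0.45 at 24 h and -0.492 at 48 h when U46619 was added to EGF. Tagln and Cnn1, both defining markers, were listed at 0 in every library. So was every one of the 7075 genes on chromosome 9, both sex chromosomes and the mitochondrial genome.

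Endothelial and macrophage markers were uneven between libraries. Of 5 endothelial markers, 4 passed the filter and none was called, with sums at 24 h from 2.67 to 1068 FPM with EGF and from 1.70 to 1290 FPM with EGF+U46619 (Cdh5 was listed at 0). In the 24 h controls of mice 1 to 6 the sums were 4.85, 6.11, 57.2, 429.5, 253.8 and 1162 FPM. Mice 4 to 6 lay above mice 1 to 3 in every 24 h group. For Abca1 the same split was seen with EGF, EGF+AngII and in all groups with U46619, but not with control or AngII. The part of endothelial cells in that was not tested. Of 6 macrophage markers, 3 passed the filter, and Csf1r was higher (0.85 ± 0.22) and Lyz2 lower (-1.10 ± 0.23) when U46619 was added to EGF at 24 h. The leukocyte markers Ptprc, Adgre1 and Itgam had at most 3 counts in any 24 h library, but at 48 h Adgre1 reached 1110 and Itgam 66 counts, with Ptprc between them. The sum of the macrophage markers at 24 h ran from 18.7 to 106 FPM with EGF and from 22.1 to 61.9 FPM with EGF+U46619. At 48 h it was 538.6 to 833 FPM in the 4 libraries of set B2-1, 234 FPM in the control of set B2-2 and 14.6 to 136.7 FPM in the others. Set B2-1 also had the highest Abcg1 levels in control (10.5 FPM), EGF (10.2 FPM) and EGF+AngII (10.2 FPM), and the part of these markers in that was not tested.

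**Figure D5:**
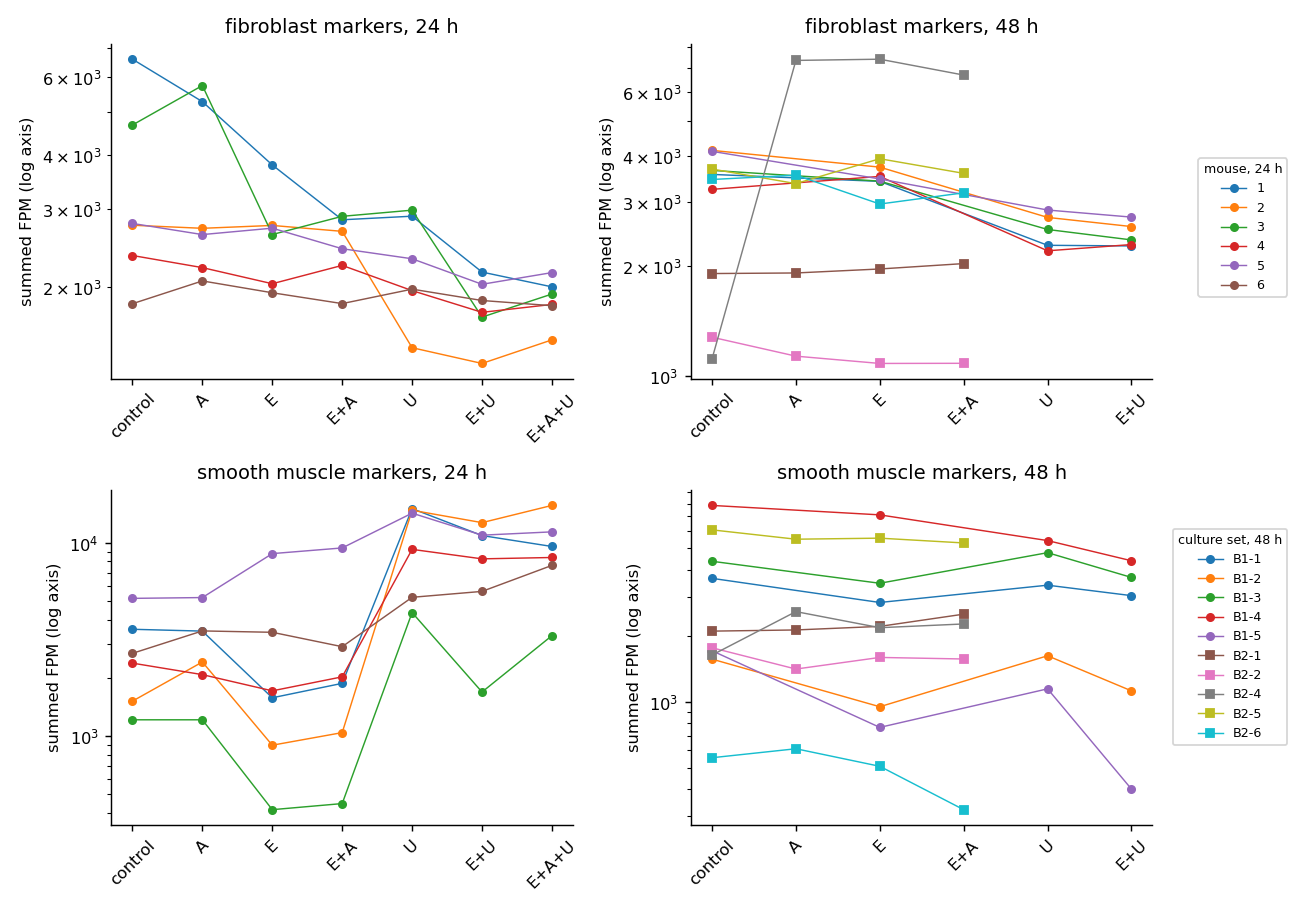
Summed FPM of the fibroblast and smooth muscle markers in each library (log axis), 1 line per mouse at 24 h and per culture set at 48 h (A, AngII; E, EGF; U, U46619). The fibroblast sum of set B2-4 goes from 1111 FPM in its control to between 6692 and 7398 FPM in its other libraries.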

How the data were processed

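Poly(A)-enriched RNA was sequenced in paired-end mode, mapped to mm10 with HISAT2 2.1.0 and counted over exons with featureCounts, multi-mapping reads included. The deposited values are raw counts per gene made by the authors, in 1 table for the 24 h and 2 for the 48 h libraries. Strandedness was not given in the sources used here. Genes of chromosomes 9, X, Y and MT (7075) are listed at 0 in every library and were left out.

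Libraries of a time point were fitted together in edgeR 4.0.16 (R 4.3.3) with TMM factors, filterByExpr and the quasi-likelihood test, with mouse as the block and treatment as the factor, and in DESeq2 1.42.0 with the same design. FPM are CPM on the TMM library sizes of 1 time point. Of the genes, 14653 were tested at 24 h and 15796 at 48 h. A gene was called when the Benjamini-Hochberg adjusted p was under 0.05 in both tools, and the mean reached 5 FPM in 1 compared group, among the 14528 genes past the filter at both times. Standard errors are the log2-fold change divided by the root of the F statistic, and 95% intervals are 1.96 standard errors either way. Intervals cover the spread between these libraries only. Time points were not compared with each other. Tests were checked on simulated data.

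Mouse numbers pair the 24 h libraries: deviations from the group means correlated above 0.1 in 126 of 126 same-mouse pairs (median 0.8). At 48 h, with group means taken within each batch, this held in 57 of 60 pairs of a culture set, and in 57 of 57 without the control library of set B2-4, but in 76 of 146 pairs of 1 mouse number from different sets, so the culture set was the alternative block. Members, lists and markers were chosen with earlier results of these data known. Named were all members, up to 3 called genes of each list with the largest change, 3 neighbours on each side of the cluster and the 5 genes most correlated with Abca8a and Abca1. Alternatives covered each tool alone, other scaling, other filters, no block, only the groups compared, single batches, summing Abca8a and Abca8b, and leaving out each mouse or set. Leaving out the control library of set B2-4 was chosen after seeing the data. Python 3.11.15 and Matplotlib 3.10.9 were used for tables and figures. Results on some genes of sterol synthesis against control are not reported here.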

Additional observations from a re-analysis of the deposited data

Results flagged for a closer look

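In 34 of 91 groups of a member (37.4%), the highest or lowest library lay further from its nearest neighbour than Dixon's 95% value allows. For independent, normally distributed values about 5% would be flagged. The FPM levels used here were often skewed and the groups share mice, so that share is no fair standard for them. The same cultures recurred among the flagged groups. Values are levels in FPM, with the nearest library of the group after each.

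Mouse 2 at 24 h was highest for cluster genes. With EGF+AngII it had 119.5 for Abca8a (nearest 40.6), 45.7 for Abca8b (12.6), 289.8 for Abca9 (71.8), 26.2 for Abca6 (2.77) and 23.1 for Abca5 (8.56). With EGF it had 37.1 for Abca8b (14.1), 266.3 for Abca9 (64.1), 20.02 for Abca6 (2.46) and 21.9 for Abca5 (8.23). It was also apart in control cells for Abca9 (63.9, nearest 16.3) and Abca6 (5.85, nearest 1.46), and with U46619 for Abca6 (4.18, nearest 0.773).

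Mouse 4 was highest for Abca8a with U46619 (2.5, nearest 1.24) and with EGF+AngII+U46619 (1.81, nearest 0.55). With EGF+U46619, mouse 3 was highest for Abca9 (11.0, nearest 3.79) and lowest for Abca5 (1.2, nearest 4.83). Mouse 1 was highest for Abca9 with EGF+AngII+U46619 (4.81, nearest 1.76).

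At 48 h set B2-4 was highest for Abca8a with EGF (143.4, nearest 36.1), AngII (158.2, nearest 13.2) and EGF+AngII (176.3, nearest 18.8), and for Abca8b with EGF (32.3, nearest 14.03), AngII (41.1, nearest 13.2) and EGF+AngII (43.6, nearest 12.1). Set B1-5 was highest for Abca8a with U46619 (4.34, nearest 1.12) and EGF+U46619 (3.55, nearest 0.928), for Abca9 with U46619 (8.11, nearest 2.43) and EGF+U46619 (5.98, nearest 2.09), and for Abca1 with U46619 (92.8, nearest 44.4).

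Set B2-6 was lowest for Abca5 with AngII (0.974, nearest 7.56) and EGF+AngII (1.3, nearest 7.42). Set B2-1 was highest for Abca1 with EGF (92.7, nearest 61.8) and for Abcg1 in control cells (10.5, nearest 3.58), with EGF (10.2, nearest 3.64) and with EGF+AngII (10.2, nearest 3.14). Its macrophage marker sums, 538.6 to 833 FPM, were the highest at 48 h, and their part in these values was not tested. No difference between groups was listed here for a member.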

How the results depend on the processing

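Of 335 alternative counts of called members, 311 stayed within 1.5 times the reported count, with 0 against 0 taken as unchanged. Comparisons without a called member had no call to lose and add to that number, so it says little about the others. Among 2238 alternative values of members 48 lost and 9 gained a call. None that was called, in either fit, changed sign, while 122 that were called in neither did. Requiring at least 10 counts in every library removes genes that are low with U46619, so the cluster genes could not be called: the counts became 0 for U46619 added to EGF at 24 h and 48 h, U46619 added to EGF+AngII, and U46619 and EGF+U46619 against control at both times, and 1 (Abca1) for all 3 agonists and for EGF+AngII against control at 24 h. Without the replicate block, 1 member (Abca8a) was called for U46619 added to EGF at 24 h and 48 h and for U46619 and EGF+U46619 against control at 24 h, and 0 for the latter pair at 48 h. With only the groups compared in the fit, 2 members (Abca8a and Abca9) were called for U46619 added to EGF+AngII, and 1 (Abca8a) for U46619 added to EGF and for U46619 against control at 48 h. For EGF+AngII against control at 24 h, 1 member (Abca1) was called by DESeq2 alone and without a filter on low counts. Leaving out 1 mouse gave 0 to 1 called member for EGF+AngII against control at 24 h (1 without mouse 4 or 6), and 1 to 3 for U46619 and for EGF+U46619 against control at 24 h (1 without mouse 5). The causes were not tested. In the paired fits by culture set at 48 h, U46619 added to EGF called 4 members, with Abca1 as the added one. Abca6, and Abca8a with U46619, rest on few counts, which limits how small a difference can be seen.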

Other observations

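Beside the cluster, Prkar1a, a regulatory subunit of protein kinase A, was called lower than control at 24 h with EGF+U46619 (-0.27 ± 0.10, adjusted p = 0.0358) and with EGF+AngII+U46619 (-0.26 ± 0.10, adjusted p = 0.0446), comparisons that share the control libraries.

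In its deviations from the group means over all genes tested, the control library of set B2-4 correlated with the AngII, EGF and EGF+AngII libraries of set B2-2 at 0.936, 0.899 and 0.895, and with the libraries of its own set at -0.32 or below. These are correlations across genes, which are not independent replicates. The group given by the labels was kept.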
